A study of Coilia nasus with 12 samples.

Results

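The complement, cytokine and chemokine genes of the Coilia nasus stomach were taken by gene symbol, as every assembled transcript cluster (unigene) whose deposited gene name fitted a pattern of complement components and factors, interleukins, chemokines and their receptors, tumour necrosis factor and interferon families, interferon regulatory factors (IRF), Toll-like receptors, STAT, SOCS and NF-kB proteins, and a few phagocyte genes. The pattern used names alone and no measured value. It took 129 unigenes under 82 gene names, of 63567 unigenes and 10971 gene names in all. The symbols also took 9 unigenes of other families, such as c1d and the IRF2-binding proteins, which were kept as a class of their own.

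RNA was sequenced from the stomachs of 12 Coilia nasus, an anchovy that migrates between sea and river, with 6 fish in the group called food intake and 6 in the group called no food intake. All fish were sampled individually, the labels name the source as gastric mucosa while their protocol takes RNA from stomachs, so whether muscle was included cannot be told, and no genotype, age or other treatment is given. The comparison asks how the stomach differed with feeding. The values are TPM (a share of all transcripts, corrected for transcript length), which keep no record of read depth.

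Complement is a chain of plasma and tissue proteases that ends in the deposition of C3 on a target and in a membrane pore, and host cells limit it with inhibitors. Cytokines and chemokines are secreted signals. Interleukin-6 and related cytokines act through receptors that share the gp130 chain and activate JAK kinases and STAT factors, which switch on their own SOCS inhibitors. Toll-like, interleukin-1 and tumour necrosis factor receptors lead to NF-kB and its inhibitors. In mucosal tissues these genes are known from epithelial cells as well as from resident macrophages and lymphocytes.

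No member passed the test with adjustment over all unigenes. The largest contrasts with small unadjusted p were the shared cytokine receptor chain Il6st (gp130) and the feedback inhibitor SOCS3, with higher levels in food-intake fish, and the inhibitor SOCS2, 1 of the CXCR4 chemokine receptors and the complement protease C1R, with lower levels in food-intake fish. These are log2 differences of TPM + 1, food-intake minus no-food-intake fish, a scale that understates change at low TPM. Of the 129 unigenes, 93 had 1 TPM or more in 6 or more fish and entered the limma test of 40142 unigenes, and 36 stayed under that limit. limma gave 0 members an adjusted p under 0.05 (smallest 0.768), against 0.0% of all tested unigenes (smallest 0.0749). At an unadjusted p under 0.05, 2 members (2.15%) were higher and 3 (3.23%) lower with food intake, against 2.48% and 3.79% of all tested unigenes, so the members' shares lay close to the background. As deposited, no tested member had groups that did not overlap, against 0.0249% of all tested unigenes that lay wholly higher and 0.142% wholly lower with food intake. The log2 change was above 0 in 38 tested members and below 0 in 55, so 40.9% were higher against 46.0% of all tested unigenes. The members' median change was -0.06 and that of all tested unigenes -0.04. The change was under 0.5 in size in 74 members, and the median standard error was 0.335.

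The libraries differed in ways that the groups do not describe. A group of 7 rRNA-like unigenes took 64.2% of all TPM in food intake 6, while their share was 4.34 to 16.4% for food intake 1 to 5 and 6.12 to 26.9% for the no-food-intake fish. Food intake 6 had the lowest value of all 12 libraries in 38 of the 93 tested members, and in 3 of them once those unigenes were taken out and TPM rescaled. That rescaling moved the median of all tested unigenes by 0.10, to 0.06, and 60.2% of the members were then higher with food intake, against 55.7% of all. Set against the median of all unigenes, 41 members lay above it and 52 below as deposited, and 45 above and 48 below after rescaling. Rescaled, 3 members were higher and 3 lower at an unadjusted p under 0.05 (3.23% each), against 5.68% and 2.53% of all, and limma gave an adjusted p under 0.05 to 0 members (smallest 0.516) and to 0.00249% of all. Without food intake 6, 7 members (7.53%) were higher and 3 (3.23%) lower, against 8.36% and 2.88% of all. Traces of chicken mitochondrial unigenes split the libraries into a set of 7 (food intake 1, 5 and 6 with no food intake 1, 2, 4 and 6) and a set of 5 without them (food intake 2, 3 and 4 with no food intake 3 and 5). Values within these sets are given below as the set of 7 and the set of 5. Median changes of the members were -0.17 and 0.11 in those sets, and of all tested unigenes -0.19 and 0.18. Of the tissue marker lists, 23 of 28 tested gastric gland unigenes had a change above 0. Their median was 0.53, 0.69 after rescaling, and -0.18 and 1.58 in the sets of 7 and 5. Of these unigenes, 2 of 28 were higher at an unadjusted p under 0.05 as deposited and 5 of 28 after rescaling. Both are larger shares than the 2.48% and 5.68% of all tested unigenes. None had an adjusted p under 0.05 by limma. Summed over the gastric gland list, no food intake 3 had 58302 TPM and the other no-food-intake fish 181140 to 367880 TPM. The food-intake fish had 108920 to 372260 TPM, with food intake 6 lowest. After rescaling no food intake 3 stayed lowest, at 80661 TPM against 206990 to 397220 TPM in the other no-food-intake fish. Apart from that fish, the set of 5 holds only no food intake 5 from its group. In the mucous epithelium list 11 of 16 had a change above 0 (median 0.06). Summed erythrocyte markers were 764 TPM in food intake 6 and 102 to 371 TPM in the other food-intake fish, against 886 TPM in no food intake 3 and 96.3 to 210 TPM in the other no-food-intake fish. The part of these in the members' values was not tested.

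**Figure D1:**
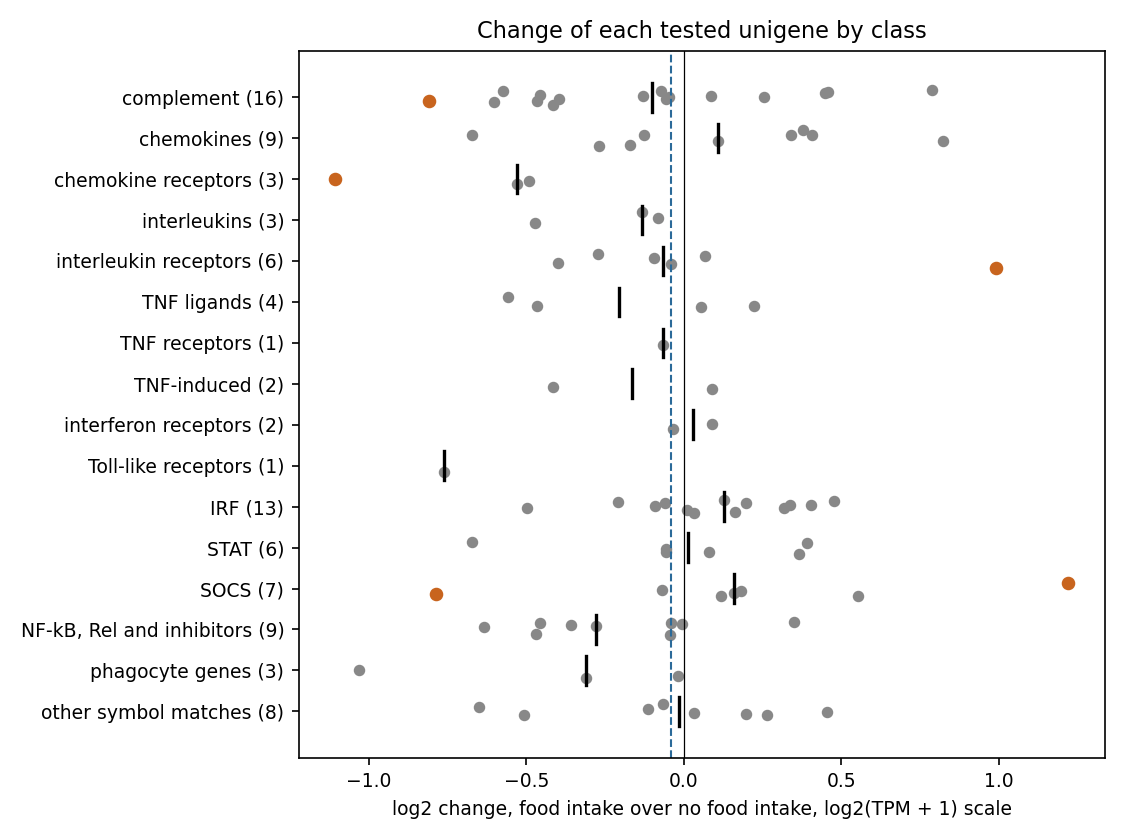
Change of each tested member by class, as food-intake minus no-food-intake mean of log2(TPM + 1), with the number tested in brackets. Each point is a unigene, orange at an unadjusted p under 0.05, the black bar is the class median and the dashed line the median of all tested unigenes at -0.04; most points lie within 0.5 of 0 on both sides.

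The gp130 chain gave the smallest p among the members. Il6st (TRINITY_DN34989_c0_g3), which carries the signal of interleukin-6 and related cytokines into the cell, had 4.22, 11.6 and 15.2 TPM as the lowest, median and highest of the food-intake fish, against 2.99, 4.45 and 5.70 TPM in the no-food-intake fish. Food-intake fish 1 to 5 all lay above the highest no-food-intake fish, and the groups overlapped through food intake 6 alone. The log2 change was 0.99 with a standard error of 0.32 (limma, unadjusted p = 0.00667, adjusted p = 0.768). It was 0.88 in the set of 7 libraries and 1.13 in the set of 5. After rescaling it was 1.15 (limma, unadjusted p = 0.000525, adjusted p = 0.516), and food intake 6 then stood at 11.9 TPM, while food intake 4 at 6.58 TPM lay below the highest no-food-intake fish at 7.84 TPM, so the groups still overlapped. Without food intake 6 it was 1.2 (limma, unadjusted p = 0.000425, adjusted p = 0.185). In bulk tissue, fewer cells of a type and less RNA per cell cannot be told apart, here and in every result that follows.

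The SOCS proteins, which STAT factors induce and which then block cytokine receptors and JAK kinases, did not share a direction. All 7 SOCS unigenes were tested, 5 with a change above 0 and 2 below, with a median of 0.16 that was 0.13 after rescaling. SOCS3 (TRINITY_DN32510_c1_g8), the main inhibitor of gp130 signalling, had 2.20, 3.17 and 38.1 TPM with food intake against 0.74, 1.37 and 2.92 TPM without. The highest value was food intake 3 alone, all 6 food-intake fish lay above the no-food-intake median, and the groups overlapped between 2.20 and 2.92 TPM as deposited. The log2 change was 1.22 with a standard error of 0.50 (limma, unadjusted p = 0.0256, adjusted p = 0.774), and 0.67 without food intake 3 (unadjusted p = 0.0388, adjusted p = 0.809). It was 0.64 in the set of 7 and 1.77 in the set of 5, which holds food intake 3. After rescaling the change was 1.39 (limma, unadjusted p = 0.0163, adjusted p = 0.527). The lowest food-intake fish then stood at 3.45 TPM, just above the highest no-food-intake fish at 3.41 TPM, so the groups did not overlap. The share of all tested unigenes without overlap after rescaling was not counted. A less abundant SOCS3 unigene (TRINITY_DN27707_c1_g11) had 1.05, 1.84 and 2.55 TPM with food intake against 0.73, 1.67 and 5.01 TPM without, a change of -0.07.

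SOCS2 (TRINITY_DN27898_c4_g1), known in mammals as a brake on growth hormone signalling, ran the other way. It had 3.29, 4.31 and 8.89 TPM with food intake against 6.27, 8.42 and 14.1 TPM without. Every food-intake fish but number 3 lay below the lowest no-food-intake fish as deposited. After rescaling food intake 3 and 6, at 10.6 and 10.9 TPM, were above the no-food-intake median of 9.55 TPM. The log2 change was -0.78 with a standard error of 0.29 (limma, unadjusted p = 0.0147, adjusted p = 0.774), with -1.07 in the set of 7, -0.44 in the set of 5 and -0.67 after rescaling. Socs1, which inhibits JAK kinases downstream of interferon receptors, had 0.44, 3.33 and 19.9 TPM with food intake against 0.99, 1.79 and 3.71 TPM without. Its highest fish was again food intake 3, the groups overlapped widely, and the change of 0.55 (standard error 0.49) was 0.09 without that fish. The 7 SOCS unigenes together came to 74.5 TPM in food intake 3, against 10.1 to 21.8 TPM in the other food-intake fish and 14.9 to 24.9 TPM in the no-food-intake fish.

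**Figure D2:**
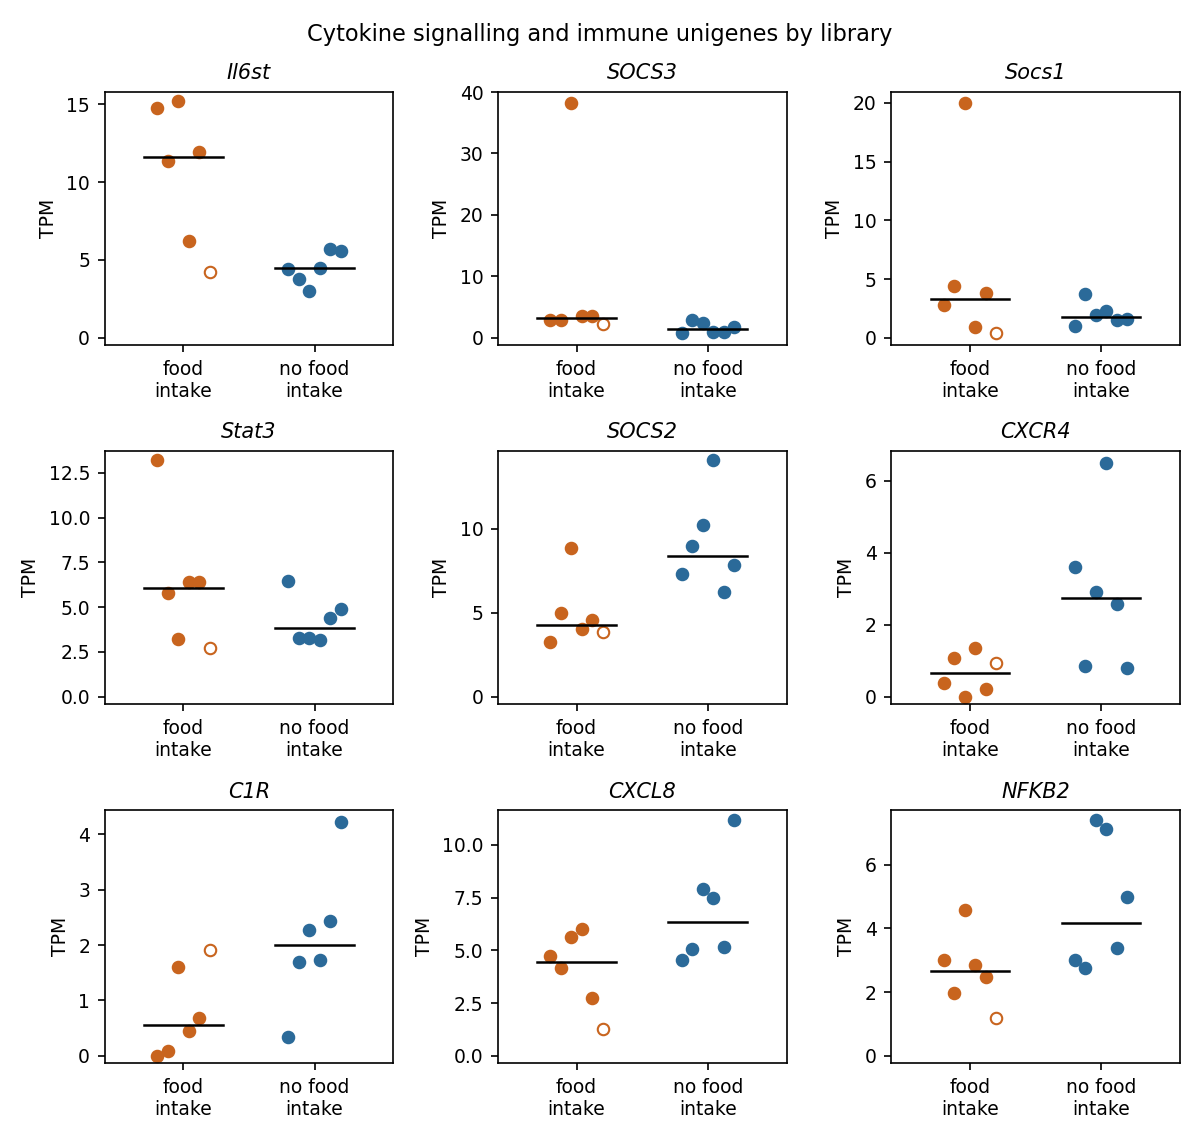
TPM by library for 9 members, food intake on the left (orange) and no food intake on the right (blue). Each point is 1 fish, the open circle is food intake 6 and the line is the group median; Il6st shows food intake 1 to 5 above every no-food-intake fish, and SOCS3 shows food intake 3 at 38.1 TPM apart from the rest.

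The STAT factors that act below these receptors varied more between fish than between groups. Of 6 tested STAT unigenes 3 had a change above 0 and 3 below, with a median of 0.01 (0.14 after rescaling), and none had an unadjusted p under 0.05. Stat3 (TRINITY_DN31830_c0_g5), the factor that gp130 activates, had 2.72, 6.09 and 13.2 TPM with food intake against 3.19, 3.85 and 6.47 TPM without, a change of 0.36 (standard error 0.33). Its groups overlapped, with food intake 1 above all other fish. A second unigene named STAT3 had a STAT2 protein as its best match and a change of 0.08. STAT5A (growth hormone and prolactin signalling) had 1.14, 2.53 and 3.20 TPM with food intake against 0.76, 1.36 and 2.97 TPM without, a change of 0.39 (standard error 0.30), while STAT6, whose best match was a STAT5B-like protein, had a change of -0.06. JAK kinases and their regulators, a list of partner genes outside the name pattern, had 13 tested unigenes, 6 with a change above 0 and 7 below, none with an unadjusted p under 0.05 and a median of -0.09.

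The interferon regulatory factors were the largest class with a median above 0. All 13 IRF unigenes were tested, 9 had a change above 0 and 4 below, and the median was 0.13 (0.26 after rescaling, -0.09 in the set of 7 and 0.19 in the set of 5), with none at an unadjusted p under 0.05. IRF1, an activator of interferon-responsive genes, had 3.02, 10.2 and 19.5 TPM with food intake against 3.61, 8.52 and 14.3 TPM without, with a change of 0.13 that was -0.40 in the set of 7 and 0.99 in the set of 5. Irf3, which triggers type I interferon after viral sensing, had 0.54, 1.49 and 2.49 TPM with food intake against 0.67, 1.10 and 2.24 TPM without, a change of 0.20. The groups overlapped in both genes. The name IRF8, a factor of macrophage and B cell development, was given to 5 tested unigenes with both signs, and the most abundant of them had an IRF9 protein as its best match (change 0.16).

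The receptors of type I interferon and the downstream antiviral genes gave a mixed picture. The 2 receptor unigenes, ifnar1a and ifnar2, had changes of 0.09 and -0.03 with overlapping groups between 2.24 and 11.6 TPM. The best match of ifnar2 was an interferon alpha/beta receptor 1-like protein. Of 22 tested unigenes of the antiviral list, 11 had a change above 0 and 11 below. At an unadjusted p under 0.05, 2 of 22 were higher and 1 of 22 lower, against 2.48% and 3.79% of all tested unigenes. GBP2, an interferon-induced GTPase, had 0.67, 3.15 and 6.19 TPM with food intake against 0.46, 0.83 and 1.24 TPM without, a change of 1.03 with a standard error of 0.34 (limma, unadjusted p = 0.0066, adjusted p = 0.768), and only food intake 4 overlapped the no-food-intake range. A unigene named TRIM25, with a TRIM16-like best match, had a change of 1.0, while a second one, matched to TRIM25 itself, had -0.73.

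Few interleukins were found, and their levels were low. The most abundant unigene named Il16, after a T cell attractant, had an uncharacterized herring protein as its best match. It had 3.18, 5.33 and 8.64 TPM with food intake against 3.85, 5.28 and 11.9 TPM without, a change of -0.13 that was near 0 after rescaling. Another, matched to pro-interleukin-16 (TRINITY_DN29375_c0_g1), had 0.80, 1.46 and 1.98 TPM with food intake against 0.88, 1.42 and 2.72 TPM without, a change of -0.08. IL17D, an epithelial and stromal member of the interleukin-17 family, had 0.83, 1.45 and 2.55 TPM with food intake against 0.81, 1.57 and 16.1 TPM without. Its high value was no food intake 3, the other fish of both groups overlapped fully, and the change of -0.47 was near 0 without that library. That library also had 26735 TPM summed over 42 unigenes of the smooth muscle list, where the food-intake fish had 2894 to 6869 TPM and the remaining no-food-intake fish 1562 to 6817 TPM; the part of this in the IL17D value was not tested.

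Of 6 tested receptor unigenes, 2 had a change above 0 and 4 below, with a median of -0.07 that was 0.03 after rescaling, -0.46 in the set of 7 and 0.50 in the set of 5. IL17RA, the signalling chain for interleukin-17 cytokines, had 3.24, 11.8 and 20.6 TPM with food intake against 6.79, 13.3 and 17.1 TPM without, a change of -0.27 that was -0.78 in the set of 7 and 0.44 in the set of 5. The interleukin-1 receptor Il1r1 had 6.63, 11.4 and 21.1 TPM with food intake against 7.94, 11.6 and 16.3 TPM without, a change of -0.04, and its accessory chain Il1rap had a change of -0.40 (standard error 0.28). In all 3 the groups overlapped. As deposited, the lowest fish of the 12 was a food-intake fish, number 6 for IL17RA and Il1rap and number 5 for Il1r1. After rescaling food intake 4 was lowest for IL17RA (7.13 TPM), and food intake 5 for Il1rap (1.40 TPM) and Il1r1 (7.23 TPM). Food intake 6 then stood at 9.13 TPM for IL17RA and 2.20 TPM for Il1rap.

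The chemokines were led by a lymphoid homing signal with overlapping groups. Of 9 tested chemokine unigenes, 5 had a change above 0 and 4 below, with a median of 0.11 (0.23 after rescaling). None had an unadjusted p under 0.05 as deposited. After rescaling 1 of 9 was higher (cxcl12) and 1 of 9 lower (CXCL8) at that limit, against 5.68% and 2.53% of all tested unigenes. CCL21, which guides T cells and dendritic cells in mammals and was the most abundant chemokine here, had 16.5, 39.9 and 55.2 TPM with food intake against 13.5, 29.5 and 49.9 TPM without, a change of 0.34 (standard error 0.39). The stromal chemokine cxcl12 (TRINITY_DN30611_c2_g3) had 4.15, 16.0 and 28.6 TPM with food intake against 2.23, 7.08 and 20.5 TPM without. All food-intake fish but number 6 lay above the no-food-intake median, and no food intake 5 was the single high fish of its group. The change was 0.82 with a standard error of 0.46 (limma, unadjusted p = 0.0901, adjusted p = 0.804), and 1.12 without food intake 6 (unadjusted p = 0.0178, adjusted p = 0.325). After rescaling it was 0.97 (limma, unadjusted p = 0.0337, adjusted p = 0.573). The 2 less abundant CXCL12 unigenes had means of 1.58 TPM or less and changes below 0.

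CXCL8 (interleukin-8), the neutrophil attractant that NF-kB induces, differed in the opposite direction. It had 1.29, 4.44 and 6 TPM with food intake against 4.54, 6.34 and 11.2 TPM without. All 6 food-intake fish lay below the no-food-intake median, and the groups overlapped between 4.54 and 6 TPM. The change was -0.67 with a standard error of 0.32 (limma, unadjusted p = 0.0538, adjusted p = 0.800), with -1.07 in the set of 7 and -0.26 in the set of 5. After rescaling it was -0.59 (limma, unadjusted p = 0.0426, adjusted p = 0.593). Cxcl14, an epithelial chemokine, had 2.57, 7.10 and 11.8 TPM with food intake against 4.33, 6.14 and 9.87 TPM without (change 0.11), and CCL4, a macrophage chemokine, had 0.51, 1.48 and 3.01 TPM with food intake against 0.25, 0.86 and 1.84 TPM without (change 0.41). Both overlapped.

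Of the 8 chemokine receptor unigenes 3 were tested, and all 3 had changes below 0 (median -0.53, and -0.50 after rescaling). The receptor for CXCL12 was measured in 2 of them. CXCR4 (TRINITY_DN22448_c0_g1) had 0, 0.66 and 1.36 TPM with food intake against 0.80, 2.74 and 6.50 TPM without. All 6 food-intake fish lay below the no-food-intake median, and no food intake 2 and 6, at 0.85 and 0.80 TPM, fell within the food-intake range. The change was -1.11 with a standard error of 0.37 (limma, unadjusted p = 0.00844, adjusted p = 0.768), and -1.14 in each set of libraries. The more abundant CXCR4 unigene (TRINITY_DN17289_c0_g1) had 1.36, 4.34 and 11.8 TPM with food intake against 1.57, 6.41 and 22.4 TPM without, a change of -0.49 (standard error 0.50) that was 0.06 in the set of 7 and -1.28 in the set of 5. Ccr9, the gut homing receptor of T cells, had 0, 0.74 and 2.58 TPM with food intake against 0, 1.65 and 4.73 TPM without, a change of -0.53, and CCR6, a receptor of mucosal lymphocytes, was under the limit for testing. The T cell marker list had 3 tested unigenes, with CD3E at -0.80 and CD247 at 0.72 (limma, unadjusted p = 0.0244 and 0.0496, adjusted p of 0.768 or above), and its summed level ran from 2.89 to 10.7 TPM with food intake and from 2.58 to 11.4 TPM without. The part of T cells in the receptor values was not tested.

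The tumour necrosis factor family showed low ligands and overlapping groups. The tnf unigene itself was under the limit for testing, with 0, 0.14 and 2.49 TPM with food intake against 0, 0.57 and 2.5 TPM without. Of 4 tested ligand unigenes, 2 had a change above 0 and 2 below. Tnfsf10 (TRAIL, a death ligand; TRINITY_DN27008_c3_g2) had 2.55, 2.99 and 5.33 TPM with food intake against 2.81, 4.98 and 8.88 TPM without, a change of -0.47 (standard error 0.28). TNFSF12 (TWEAK, a ligand of tissue repair in mammals) had 0.97, 3.31 and 5.49 TPM with food intake against 2.49, 4.52 and 7.08 TPM without, a change of -0.56 that was -1.36 in the set of 7 and 0.50 in the set of 5. Tnfaip3 (A20), which shuts off NF-kB signalling after TNF, had 4.97, 11.0 and 17.3 TPM with food intake against 6.91, 14.6 and 30.9 TPM without, a change of -0.41 (standard error 0.39) that was -0.20 without no food intake 5 and -0.23 without food intake 6. In each of these 3 the groups overlapped and the food-intake median was the lower. A short TNFSF10 unigene with a human best match had 1.45, 5.65 and 12.8 TPM with food intake against 0.97, 5.57 and 12.01 TPM without. The receptor TNFRSF19 and the TNF-induced tnfaip8l1 had changes of -0.07 and 0.09, and Tnfrsf11a and Tnfaip6 were under the limit for testing.

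Of 9 tested NF-kB, Rel and inhibitor unigenes, 1 had a change above 0 and 8 below as deposited (median -0.28), and 4 above and 5 below after rescaling (median -0.21). The median was -0.47 in the set of 7 and 0.16 in the set of 5, and none had an unadjusted p under 0.05. NFKB2 (p100, the precursor of the alternative pathway) had 1.19, 2.66 and 4.58 TPM with food intake against 2.75, 4.18 and 7.40 TPM without. The groups overlapped between 2.75 and 4.58 TPM, and 5 of 6 food-intake fish were below the no-food-intake median. The change was -0.63 with a standard error of 0.31 (limma, unadjusted p = 0.0549, adjusted p = 0.802). The 2 unigenes of NFKBIA, the inhibitor that NF-kB itself induces, were the most abundant of the class and had opposite signs over all 12 fish. Nfkbia (TRINITY_DN27337_c1_g5) had 7.82, 19.8 and 50.8 TPM with food intake against 17.1, 30.7 and 48.4 TPM without (change -0.47), and NFKBIA (TRINITY_DN35012_c0_g1) had 9.41, 30.8 and 53.6 TPM with food intake against 15.0, 21.0 and 28.8 TPM without (change 0.35). Within the library sets they shared a sign, at -1.29 and -0.22 in the set of 7 and at 0.41 and 0.93 in the set of 5. Rela and RELB, the DNA-binding subunits with transactivation domains, had changes of -0.05 and near 0, REL had -0.36, and the inhibitor NFKBIE, matched to an NFKBIA-like protein, -0.04.

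Upstream of NF-kB, Toll-like receptors had low levels. Tlr13, a sensor of bacterial ribosomal RNA in mice, had 0, 1.34 and 3.26 TPM with food intake against 0.82, 3.04 and 4.09 TPM without, a change of -0.76 (limma, unadjusted p = 0.0701, adjusted p = 0.803). Its best match was an unnamed carp protein. TLR5, the flagellin receptor, had 2 unigenes under the limit, and 1 of them stood at 6.90 TPM in food intake 1 against at most 0.81 TPM in the no-food-intake fish. Among 33 tested adaptor and kinase unigenes of the Toll-like receptor pathway 13 had a change above 0 and 20 below, with a median of -0.08 (0.01 after rescaling). At an unadjusted p under 0.05, 0 of 33 were higher and 3 of 33 lower as deposited, against 2.48% and 3.79% of all tested unigenes. After rescaling 3 of 33 were higher and 3 of 33 lower, against 5.68% and 2.53% of all. The 3 lower as deposited were all unigenes named CYLD, a deubiquitinase that limits NF-kB signalling. The most abundant had 18.2, 33.3 and 79.3 TPM with food intake against 53.4, 64.1 and 292 TPM without, a change of -1.25 with a standard error of 0.45 (limma, unadjusted p = 0.0129, adjusted p = 0.774). As deposited, only food intake 4 lay within the no-food-intake range there, and no food intake 4 was the highest fish.

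The inflammasome and caspase list, with NLRC3 as its most frequent name, had 22 tested unigenes, of which 6 had a change above 0 and 16 below (median -0.22, and -0.09 after rescaling). The single one of the 22 at an unadjusted p under 0.05 was lower, where 3.79% of all tested unigenes were lower at that limit. It was a unigene of TXNIP, a glucose-responsive thioredoxin inhibitor that also binds NLRP3. It had 46.0, 60.5 and 193 TPM with food intake against 85.5, 195 and 247 TPM without, a change of -1.24 with a standard error of 0.41 (limma, unadjusted p = 0.00755, adjusted p = 0.768). As deposited, food intake 4 was its only food-intake fish inside the no-food-intake range.

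Complement was the largest class, and 16 of its 32 unigenes were tested. Of these 5 had a change above 0 and 11 below as deposited (median -0.10), and 9 above and 7 below after rescaling (median 0.03). The median was -0.24 in the set of 7 and -0.56 in the set of 5, where those of all tested unigenes were -0.19 and 0.18. The named recognition and protease genes of the classical and lectin routes had lower medians with food intake. C1R (TRINITY_DN32133_c3_g1), the first protease of the classical route, had 0, 0.57 and 1.92 TPM with food intake against 0.34, 2.01 and 4.23 TPM without. As deposited, all 6 food-intake fish were below the no-food-intake median and the groups overlapped. After rescaling 5 were below it, and food intake 6 at 5.41 TPM lay above the highest no-food-intake fish at 4.56 TPM. The change was -0.81 with a standard error of 0.37 (limma, unadjusted p = 0.0433, adjusted p = 0.788), and -0.76 after rescaling (unadjusted p = 0.126, adjusted p = 0.701).

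The 3 chains of C1q, which binds antibody and dying cells and is made largely by macrophages, each had a lower median with food intake. C1qc had 0.62, 2.05 and 3.76 TPM with food intake against 2.05, 3.66 and 6.74 TPM without, a change of -0.58 (limma, unadjusted p = 0.0910, adjusted p = 0.804). C1QB had 0.49, 0.76 and 1.84 TPM with food intake against 0.71, 1.5 and 2.73 TPM without, and C1QA, under the limit for testing, had 0.23, 0.43 and 1.53 TPM against 0.50, 1.04 and 2.83 TPM. In each chain 5 of 6 food-intake fish were below the no-food-intake median as deposited, and after rescaling 5 for C1QB and 4 for C1QA and C1qc. MASP1, a protease of the lectin route, had 1.30, 4.84 and 7.10 TPM with food intake against 3.45, 6.87 and 10.4 TPM without, a change of -0.60 (limma, unadjusted p = 0.104, adjusted p = 0.808).

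The macrophage list includes the C1q chains, MPEG1 and csf1r, which are members reported here, so it is no separate measure of macrophages. It had 5 tested unigenes and none with a change above 0 (1 after rescaling). Its median of -0.31 was the change of MPEG1 itself. Its summed level was 4.61, 14.7 and 23.5 TPM with food intake against 12.2, 18.5 and 20 TPM without. The part of macrophage content in the C1q values was not tested.

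In the alternative route, factor B and factor D, the proteases that amplify C3 cleavage, had no common direction. CFB was measured in 2 tested unigenes: TRINITY_DN33106_c1_g3 had 1.47, 2.36 and 4.17 TPM with food intake against 2.79, 3.66 and 4.95 TPM without (change -0.46, standard error 0.26). TRINITY_DN33106_c1_g2 had 0.92, 2.86 and 9.12 TPM with food intake against 0.45, 1.24 and 18.1 TPM without (change 0.46, and 1.0 without no food intake 3). In the second, 5 of 6 food-intake fish were above the no-food-intake median, and in the first 5 of 6 were below it. CFD had 0.41, 3.90 and 15.1 TPM with food intake against 0.79, 4.78 and 13.3 TPM without, with changes of 1.14 in the set of 7 and -1.83 in the set of 5. C9, which forms the pore, had 0, 1.49 and 4.38 TPM with food intake against 0, 1.68 and 5.55 TPM without (change -0.05).

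The central component C3 varied between fish far more than between groups, and factor I, the protease that inactivates C3b, varied with it. Summed over 9 unigenes, c3 had 4.02, 37.3 and 198 TPM with food intake against 2.32, 19.2 and 124 TPM without. The highest fish were food intake 6 and no food intake 5, and the lowest were food intake 3 and no food intake 2. Summed over 3 unigenes, factor I (Cfi) had 0.26, 1.99 and 36.9 TPM with food intake against 0.05, 0.53 and 11.7 TPM without, with the same fish highest in each group. Of the 9 c3 unigenes 8 were highest in food intake 6 among food-intake fish, and 6 in no food intake 5 among the others. All 3 factor I unigenes were highest in both.

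The most abundant c3 unigene (TRINITY_DN30685_c1_g4) had 1.44, 26.3 and 110 TPM with food intake against 1.2, 7.13 and 80.6 TPM without. Its change was 0.79 with a standard error of 0.88 (limma, unadjusted p = 0.382, adjusted p = 0.907), 2.23 in the set of 7 and -1.78 in the set of 5, where the set of 7 holds food intake 6 and the set of 5 holds no food intake 5. After rescaling, c3 came to 558 TPM in food intake 6 and 170 TPM in no food intake 5. Liver makes most plasma C3 and factor I in vertebrates. The summed hepatocyte list, with albumin, transferrin and apolipoproteins, was 8.82 TPM in food intake 6 against 6.93 to 19.8 TPM in the other food-intake fish, and 9.93 TPM in no food intake 5, where the other no-food-intake fish had 10.3 to 15.1 TPM. After rescaling the list came to 24.9 TPM in food intake 6, the highest of the 12 fish (8.34 to 20.9 TPM in the other food-intake fish), and to 13.7 TPM in no food intake 5, within the 11.1 to 20.8 TPM of the other no-food-intake fish. The part of liver RNA in the c3 and factor I values was not tested.

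**Figure D3:**
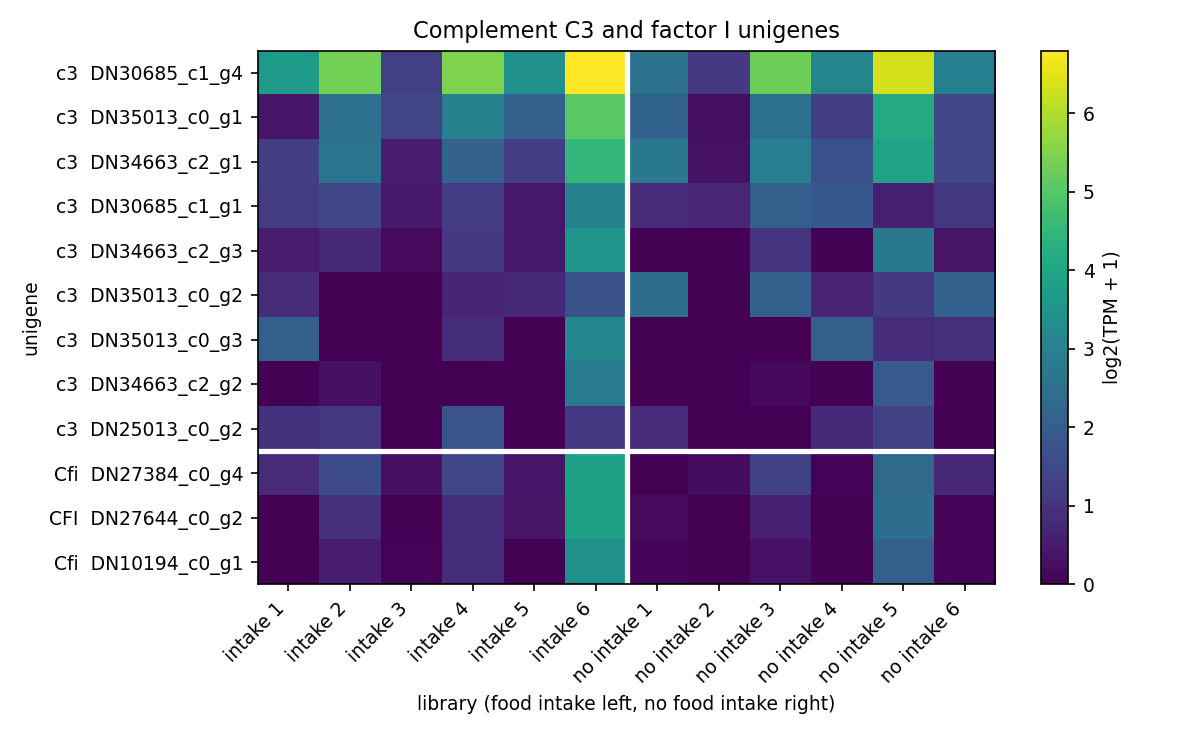
Log2(TPM + 1) of the 9 c3 and 3 factor I unigenes (rows) in the 12 libraries (columns, food intake on the left of the white line and no food intake on the right). Brighter cells are higher; food intake 6 and no food intake 5 stand out in most rows, with summed c3 of 198 and 124 TPM.

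Complement partners outside the name pattern had 15 tested unigenes, 7 with a change above 0 and 8 below. At an unadjusted p under 0.05, 3 of 15 were higher and 1 of 15 lower, against 2.48% and 3.79% of all tested unigenes. The 3 higher were all unigenes of 1 gene name, calreticulin, an endoplasmic reticulum chaperone that can also bind C1q at the cell surface. The most abundant of them (CALR TRINITY_DN29974_c1_g2) had 5.48, 47.2 and 115 TPM with food intake against 7.37, 11.0 and 26.9 TPM without, a change of 1.38 with a standard error of 0.58 (limma, unadjusted p = 0.0289, adjusted p = 0.774). As deposited, food intake 4 fell within the no-food-intake range and food intake 6 below it, and the other 4 food-intake fish lay above it. In food intake 6 rRNA-like unigenes took 64.2% of all TPM, and its rescaled CALR value was not compared. The lower one was Itgax, the alpha chain of a complement receptor on myeloid cells, with 0.79, 2.71 and 15.5 TPM with food intake against 3.89, 11.7 and 20.4 TPM without, a change of -1.32 with a standard error of 0.49 (limma, unadjusted p = 0.0152, adjusted p = 0.774). As deposited, food intake 3 and 4 were inside the no-food-intake range and the other 4 food-intake fish below it.

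The 3 phagocyte genes had changes below 0 as deposited, and 1 was above 0 after rescaling. LYZ, the secreted antibacterial lysozyme, had 0.51, 2.57 and 12.6 TPM with food intake against 0.84, 6.50 and 20.01 TPM without. The fish scattered over the whole range in both groups, and the change of -1.03 (standard error 0.64) was -1.92 in the set of 7 and 0.27 in the set of 5. MPEG1, the pore-forming macrophage protein, had 0.42, 1.03 and 1.65 TPM with food intake against 0.78, 1.45 and 2.40 TPM without (change -0.31), and csf1r, the receptor that sustains macrophages, had 1.66, 3.69 and 6.34 TPM against 2.09, 4.03 and 4.80 TPM (change -0.02). A wider phagocyte list had 6 tested unigenes above 0 and 16 below (median -0.10, and near 0 after rescaling), with 0 higher and 0 lower at an unadjusted p under 0.05. The leukocyte list summed to 23.2, 43.3 and 64.6 TPM with food intake against 29.4, 45.6 and 70.1 TPM without.

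Of the symbols that the pattern took from other families, 4 of 8 tested unigenes had a change above 0 and 4 below. C1qbp, a mitochondrial matrix protein despite its name, had 1.0, 8.66 and 25.3 TPM with food intake against 4.33, 5.41 and 7.03 TPM without, a change of 0.45 (standard error 0.46). It was 0.14 without food intake 1, the highest fish, and 0.88 without food intake 6, the lowest (limma, unadjusted p = 0.0197, adjusted p = 0.337), with 0.04 in the set of 7 and 0.92 in the set of 5. The corepressors irf2bp2a and irf2bp2b had changes of -0.51 and -0.65 with overlapping groups.

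Unigenes of 1 name did not always share a sign. Of 18 gene names with more than 1 tested unigene, 10 had members with both signs, among them c3, CFB, CXCL12, NFKBIA and SOCS3. The same share over all gene names was not counted, so this is no trait of the members. Of the 36 members under the limit 14 had a higher mean and 22 a lower mean with food intake. A further 15 names that were looked for, among them il1b, il6, il10, tnfa, ifng and tlr2, matched no deposited gene name. Best matches were proteins of Atlantic herring (Clupea harengus) for 115 of the 129 members. The best match was human for 3 members, and the IL23R one of them (TRINITY_DN36896_c0_g1) was at 0 in all libraries of the set of 7, at 1.99 to 8.57 TPM in food intake 2, 3 and 4 and at 6.69 and 11.99 TPM in no food intake 3 and 5. All of its values above 0 thus lay in the set of 5, in both feeding groups. The sum over all unigenes with a human best match ran the other way. It was 5192 to 9108 TPM in the set of 7 and 2050 to 3606 TPM in the set of 5.

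**Figure D4:**
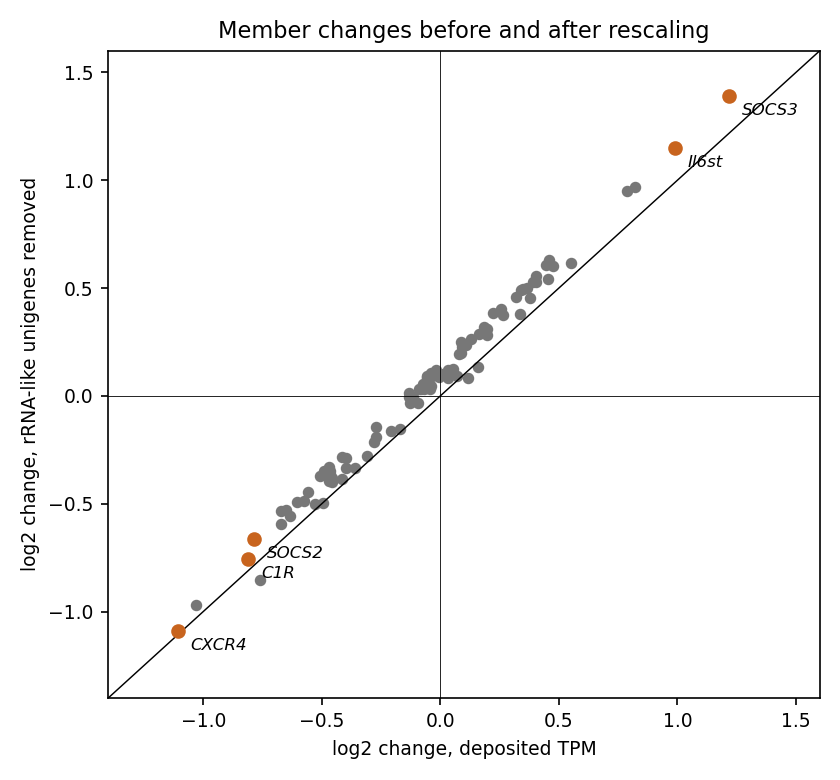
Log2 change of the 93 tested members with the deposited TPM (x axis) and after removal of the 7 rRNA-like unigenes and rescaling (y axis), both food intake over no food intake. Each point is a unigene, orange for the 5 with an unadjusted p under 0.05 as deposited; most points lie above the diagonal, and 56 instead of 38 are above 0 after rescaling.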

How the data were processed

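RNA of 12 stomachs (6 food intake, 6 no food intake) was extracted with TRIzol and sequenced as read pairs, per the labels' protocols. Reads were processed with cutadapt and FastQC, per the submitters' processing notes. The deposited values, per Trinity unigene and fish, were taken as TPM because of their column totals of 984119 to 992092, since the header names no unit. The sources used here do not give the quantifier, its filters or the read depth; precision is therefore judged by how far fish of a group differ. Each column matched 1 sample.

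limma 3.58.1 (R 4.3.3, version 1.17.8 of data.table) with a trend in the prior variance compared the feeding groups on log2(TPM + 1). It covered unigenes that had 1 TPM in 6 or more libraries, with no other term. Benjamini-Hochberg adjustment was over all tested unigenes at 0.05. The same fit was also run on simulated data, and its outcome there is not reported here. A count test was not used, since the table holds TPM. Python 3.11.15, pandas 2.3.3 and matplotlib 3.10.9 did the rest.

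The members and lists were chosen with earlier results of these data known. Named in each class were the 3 most abundant genes, up to 3 with the smallest p, and a set of fixed names. The other unigenes of a named gene, the named partner and marker genes, and IL23R were chosen after their values were seen. Values of a few members are not reported here. Library sets were read from 9 chicken mitochondrial unigenes. The rRNA-like unigenes had a mean of at least 1000 TPM and a correlation of at least 0.95 with the unigene named ART2. Alternatives were quantile normalization, no trend, no filter, a 5 TPM minimum, a pseudocount of 0.1, a replicate block, 1 unigene or summed TPM per name, library sets, rescaling, array weights and libraries left out.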

Additional observations from a re-analysis of the deposited data

Results flagged for a closer look

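Groups of 6 fish were searched for a single fish far from the other 5, over 156 groups (each named member reported here and each class sum, in both feeding groups), and 8 were found. Chance alone marks about 1 in 20 such groups if values are independent and normally distributed. The search used TPM as deposited, without logs, and class sums include members also searched singly, so that rate is a rough guide. Food intake 3 had 38.1 TPM of SOCS3 (TRINITY_DN32510_c1_g8), against 2.20 to 3.56 TPM in the other food-intake fish, and 74.5 TPM summed over the SOCS class, against 10.1 to 21.8 TPM. Food intake 6 had 13.8 TPM of Cfi (TRINITY_DN27384_c0_g4), against 0.21 to 1.88 TPM, and 2.57 TPM of Cxcl14, against 6.98 to 11.8 TPM. After rescaling that fish was close to the others in Cxcl14, at 7.24 TPM against 7.55 to 14.3 TPM. In Cfi it stayed apart, at 38.9 TPM against 0.25 to 2.26 TPM. No food intake 3 had 18.1 TPM of CFB (TRINITY_DN33106_c1_g2), against 0.45 to 1.59 TPM in the other no-food-intake fish. It also had 16.1 TPM of IL17D, against 0.81 to 2.71 TPM, and 0.92 TPM of tnfaip8l1, against 1.45 to 1.83 TPM. No food intake 2 had 7.47 TPM summed over the interferon receptors, against 11.7 to 15.2 TPM.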

How the results depend on the processing

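limma gave no member an adjusted p under 0.05 in any of the 26 alternatives, and the smallest adjusted p of a member ran from 0.185 to 0.996. Of 59 tested and named genes, 27 kept their sign in every alternative in which they were fitted. Among them were Il6st and SOCS2 in 26, SOCS3 and C1R in 25 and CXCR4 (TRINITY_DN22448_c0_g1) in 24. Some of these alternatives could not change the sign. The fits with no trend, no filter, a 5 TPM minimum, a replicate block or 1 unigene per name leave the log2 change itself as it was. Their agreement was fixed in advance. The member counts that follow are out of 93, except 29 with a 5 TPM minimum and 69 gene names with TPM summed by name. Against 2 members higher and 3 lower at an unadjusted p under 0.05, there were, with the share of all tested unigenes in brackets, 5 lower with quantile normalization (4.65%), 1 higher and 1 lower with a 5 TPM minimum (2.32% and 5.03%), 1 higher with TPM summed by name (2.46%), 6 lower with the library set as a term (4.35%), 1 higher and 7 lower in the set of 7 (1.47% and 5.93%), 1 higher and 1 lower in the set of 5 (4.88% and 1.47%), and 6 higher without food intake 6 and no food intake 3 (7.14%). With 1 library left out, 1 to 7 were higher: 7 without food intake 6 (8.36% of all), and 1 without no food intake 1 (2.47%) or 4 (2.92%). With 1 library left out, 2 to 7 were lower: 7 without food intake 4 (4.81%), 6 without no food intake 1 (4.06%) and 5 without food intake 3 (4.04%). With the replicate number as a block, 2 were higher and 4 lower (2.48% and 3.58% of all). The labels give no pairing of fish. Same-numbered libraries correlated at -0.102 to 0.108 once group means were taken out, which cannot show by itself that fish were unpaired.

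Class medians that moved by more than the spread between replicates were, with a 5 TPM minimum, tumour necrosis factor ligands 0.22, SOCS -0.79 and other symbols -0.51, and, with a pseudocount of 0.1, Toll-like receptors -1.76. Only 29 members passed the 5 TPM minimum, and the first 2 of these medians equal the values of single unigenes, the short TNFSF10 and SOCS2. The Toll-like receptor class had 1 tested unigene, Tlr13. In the set of 7 the interleukin receptors were at -0.46. In the set of 5 they were at 0.50, chemokines 0.46, chemokine receptors -1.14, tumour necrosis factor ligands 0.40, NF-kB 0.16, phagocyte genes 0.27, Toll-like adaptors 0.26, JAK kinases 0.29 and other phagocyte genes 0.26. The cause of the moves in the library sets was not tested. TPM holds no depth, and 93 of the 129 members had a mean under 5 TPM.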
